A study of Mus musculus with 6 samples.

Results

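Lymphatic endothelial nuclei were rare in the single-nucleus RNA sequencing libraries of mouse white adipose tissue: 144 of 27074 kept nuclei met the rule for them. The rule took nuclei with over 500 genes, over 1000 UMIs (unique molecular identifiers, each standing for 1 captured RNA molecule) and under 15% mitochondrial UMIs. It asked for at least 4 UMIs in sum from the 5 lymphatic markers Mmrn1, Prox1, Flt4, Reln and Lyve1, from at least 2 of these genes. It allowed at most 1 UMI in sum from Ptprc, Skap1, Csf1r, Epcam, Upk3b and Plin1, genes of leukocytes, epithelium, mesothelium and adipocytes. The members were therefore chosen by measured values, and the 5 marker genes are given as a description, without a test.

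The 6 libraries came from female C57BL/6J mice and formed 3 groups, each of 2 libraries. The subcutaneous fat of the groin (inguinal, SAT) was sampled at both 2 and 24 months, and the visceral fat around the gonads (gonadal, VAT) at 24 months. No treatment or transgene was given in the sources used here, and VAT of young mice was not used here. The older age is 24 months in the labels and 26 months in the design text, and the former is used. The methods describe 2 mice per age and 2 replicates of each depot at each age, so that the libraries of a group may come from separate mice and both depots at 24 months may share them, but no label ties a library to a mouse. The p-values measure only the spread between these libraries, which may be technical. The labels call the cells of every library adipocytes, although whole tissue was dissociated into nuclei.

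Lymphatic endothelial cells line the vessels that collect fluid, lipid and leukocytes from tissue and return them to the blood. Prox1 is the transcription factor that sets and keeps their identity, Flt4 (VEGFR3) is the receptor for the growth factor VEGF-C, Lyve1 is a hyaluronan receptor, Mmrn1 a secreted multimerin and Reln a secreted glycoprotein. Capillary lymphatics secrete the chemokine CCL21, which draws dendritic cells and T cells that carry CCR7 into the vessel. The inguinal fat pad holds a lymph node, whose sinuses are lined by lymphatic cells of their own, among them cells with the scavenger receptor Stab2.

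By library, 9 and 8 lymphatic nuclei came from SAT at 2 months, 2 and 6 from SAT at 24 months, and 23 and 96 from VAT at 24 months (replicates 1 and 2). VAT replicate 2 alone held 66.7% of them. The lymphatic nuclei were about as deep as other nuclei, with median UMIs per library between 1227.5 and 1800 and at most 3193 in 1 nucleus. In sum they gave 13928 and 14351, 2455 and 8974, and 38939 and 148728 UMIs. Levels are given here as CPM, the UMIs of a gene out of every 1000000 UMIs of the lymphatic nuclei of a library, so that 1 UMI was worth 71.8 and 69.7, 407 and 111, and 25.7 and 6.72 CPM in the same order. A level in the 2 nuclei of SAT 24 months replicate 1 thus rested on single UMIs, and that library stayed out of the gene tests, which required 5 nuclei. In VAT replicate 2, genes of ovary and oviduct summed to 2594 CPM over the other nuclei, against 22.2 to 41.3 CPM in the other libraries, and to 161 CPM in its lymphatic nuclei.

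Over all members, most of them from VAT, all 5 markers of the rule were seen in 37 nuclei, 4 in 52, 3 in 42 and 2 in 13. SAT 2 months replicate 2 stood lower, with 3 markers in 5 nuclei, 2 markers in 3 nuclei and 1 UMI of Prox1 in all. Mmrn1 (chr6:60901960-60966362, GRCm39) was at 1795 and 1185 CPM in the SAT libraries at 2 months, at 0 and 5349 CPM in those at 24 months, and at 3749 and 3200 CPM in VAT. Flt4 (chr11:49500090-49543582) was at 1436 and 836, 815 and 1560, and 2106 and 2353 CPM. Prox1 (chr1:189850232-189904637) was at 574 and 69.7, 815 and 1114, and 514 and 699 CPM. Reln (chr5:22089452-22549700) and Lyve1 (chr7:110448585-110462460) reached 4680 CPM each in SAT 24 months replicate 2, where 1 nucleus carried 20 of the 42 Lyve1 UMIs. Lyve1 was seen in 19 of 23 nuclei of VAT replicate 1 and 53 of 96 of VAT replicate 2. Over the other kept nuclei the 5 markers were each at most at 34.3 CPM in every library.

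At the edge of the rule, 8 members had exactly 4 marker UMIs and 10 had 5, while 7 nuclei with 3 UMIs from at least 2 markers and 27 with at least 4 UMIs from a single marker stayed outside. A further 15 nuclei failed on the excluded genes only. No doublet caller was run, and the limit on the excluded genes is the only guard against mixed droplets. Blood vascular endothelial nuclei were set beside the lymphatic ones. They were taken by the same filters with at least 4 UMIs from at least 2 of Flt1, Ptprb, Cyyr1, Emcn and Btnl9 and at most 1 UMI of the lymphatic markers, and numbered 440. Of the lymphatic nuclei, 28 also passed the blood vascular marker threshold, 20 of them in VAT replicate 2. The barcode of 1 lymphatic nucleus also occurred among the barcodes of another library, and none was shared between lymphatic nuclei.

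**Figure D1:**
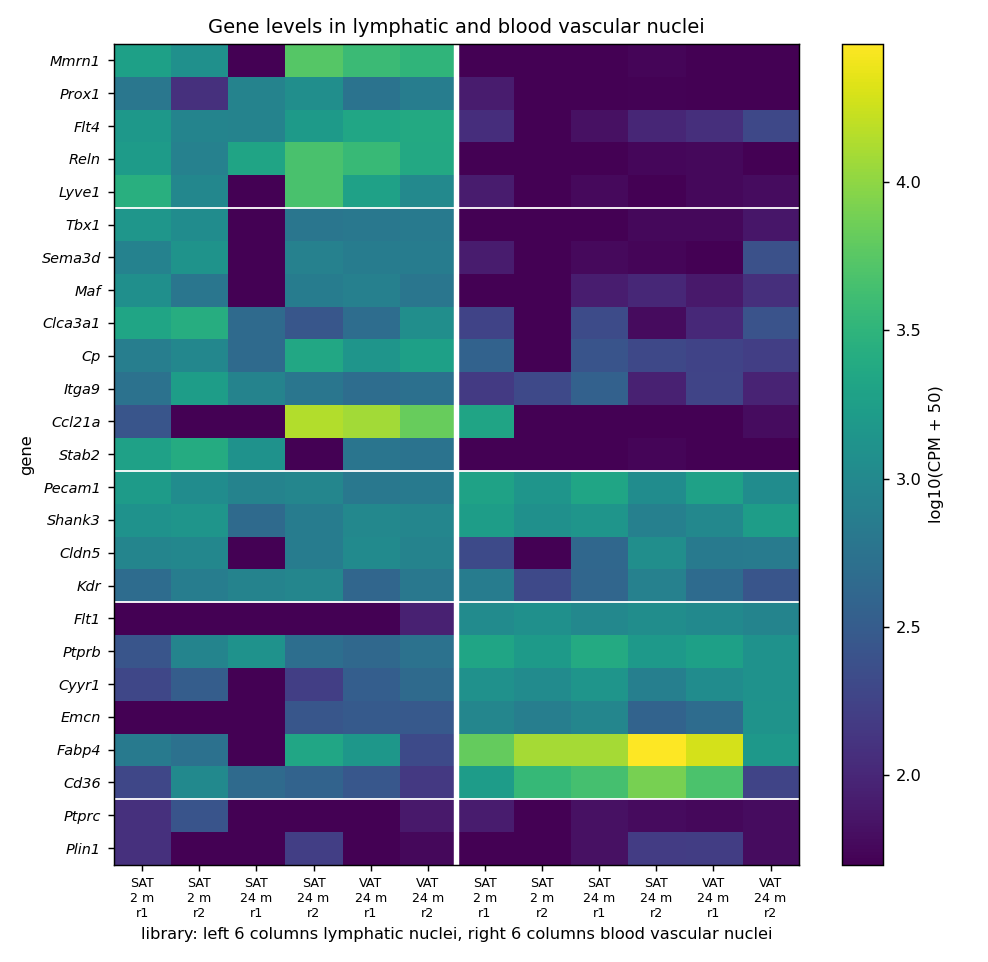
Levels of 25 genes (rows) in lymphatic nuclei (left 6 columns) and blood vascular nuclei (right 6 columns) of each library, as log10(CPM + 50). The 5 marker genes at the top are brighter on the left, as both gates fix (the blood vascular one allowed 1 UMI of them), apart from Mmrn1 and Lyve1 at 0 in SAT 24 m r1, the pan-endothelial genes in the middle are bright on both sides, Flt1, Fabp4 and Cd36 are bright on the right, and Ptprc and Plin1, which the rule limited in lymphatic nuclei, are the last rows; r1 and r2 are replicates and m is months.

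Ccl21a had the smallest adjusted p of the genes tested outside the rule in both comparisons with SAT at 2 months. It encodes CCL21, the chemokine by which lymphatic vessels guide CCR7-bearing leukocytes, and lies at chr4:42772859-42773995 on the minus strand (GRCm39, GENCODE M39). Mouse chromosome 4 carries several nearly identical copies of it. In the reference, the 399 coding bases of Ccl21b, Ccl21d, Ccl21e and Ccl21f differ from those of Ccl21a at the same 2 bases, T84A and C194T, counted from 1 at the first coding base of Ccl21a (the base of Ccl21a first). Both sites are shown because reads from any other stretch of the coding sequence cannot tell the copies apart. The differing base is in capitals, and the windows of Ccl21d, Ccl21e and Ccl21f have the letters of Ccl21b.
Ccl21a around base 84, chr4:42773733-42773761, minus strand: agtgatggagggggTcaggactgctgcct
Ccl21b around base 84, chr4:42255924-42255952, plus strand: agtgatggagggggAcaggactgctgcct
Ccl21a around base 194, chr4:42773520-42773548, minus strand: gttctCaccccggaagcactctaagcctg
Ccl21b around base 194, chr4:42256137-42256165, plus strand: gttctTaccccggaagcactctaagcctg
All 5766 UMIs of the family in kept nuclei were assigned to Ccl21a in the deposited counts, and Ccl21b, Ccl21d, Gm10591 (Ccl21e) and Gm13304 (Ccl21f) had 0. How the counting step chose between the copies is not given in the sources used here, so that the values are best read as those of the family.

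In lymphatic nuclei, Ccl21a had 3 and 0 UMIs in SAT at 2 months (215 and 0 CPM). It had 0 and 124 UMIs in SAT at 24 months (0 and 13818 CPM, the 0 from the library of 2 nuclei). It had 468 and 977 UMIs in VAT at 24 months (12019 and 6569 CPM). The chemokine was thus nearly lacking in both SAT libraries at 2 months and abundant in 3 of the 4 libraries at 24 months. By nuclei, 2 of 9 and 0 of 8 carried a UMI at 2 months, against 5 of 6 in SAT 24 months replicate 2 (83.3%, exact 95% interval 35.9% to 99.6%), 22 of 23 in VAT replicate 1 and 78 of 96 in VAT replicate 2. The 0 of 8 allows a share of nuclei with a UMI of up to 37.5% by a floor of 3 counts and up to 36.9% by the exact interval, at a median of 1800 UMIs per nucleus, and does not limit the share that expressed the gene. The highest count in 1 nucleus was 53 of the 124 UMIs in SAT 24 months replicate 2. It was 82 of 468 and 49 of 977 UMIs in VAT replicates 1 and 2. The level of the SAT library thus rested in large part on 1 nucleus, though 5 of 6 carried the gene.

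The share of nuclei with a Ccl21a UMI was low outside the lymphatic ones, but these nuclei were many, and the lymphatic nuclei held 1572 of the 5766 Ccl21a UMIs. Of all other nuclei, outside both endothelial gates, 3.94% and 6.23% carried a UMI in SAT at 2 months, where the lymphatic nuclei had little, and 1.73% and 0.917%, and 1.36% and 2.31% in the other groups, with median depths of 1379 to 1881 UMIs. Of blood vascular nuclei, 1 of 16 and 1 of 48 carried it in SAT 2 months replicate 1 and VAT replicate 2, and 0 in the other 4 libraries. The 1 nucleus of SAT 2 months replicate 1 held enough to put the blood vascular nuclei there at 1997 CPM of Ccl21a, above the 215 CPM of the lymphatic ones, and those of VAT replicate 2 were at 11.3 CPM.

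Outside the rule, a list of 15 further genes of lymphatic identity was followed, of which all had a UMI in lymphatic nuclei and 11 passed the filter on low counts of the gene tests. Tbx1, a T-box transcription factor needed for lymphatic growth, was at 1364 and 1045, 0 and 557, and 591 and 632 CPM, against at most 22.6 CPM in blood vascular nuclei of any library. Maf, a transcription factor of lymphatic and other cells, was at 1149 and 557, 0 and 669, and 745 and 565 CPM, against at most 67.9 CPM. Both genes were thus present in the 5 libraries with more than 2 lymphatic nuclei. Itga9, the integrin chain of lymphatic valves, was at 503 and 1672, 815 and 557, and 437 and 477 CPM, and above the blood vascular nuclei in every library. Nr2f2 (COUP-TFII), which acts with Prox1 and is also a vein gene, was at 334 to 1003 CPM. Pdpn, the podoplanin membrane protein, was seen at 69.7 to 308 CPM in 5 libraries and did not pass the filter. Nts, neurotensin, was at most at 111 CPM.

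Ranked without a test over 1381 genes, those outside the rule with a UMI in lymphatic nuclei of 5 libraries, 199 were on average at least 2-fold above the blood vascular nuclei and 32 at least 2-fold below, on the log2(CPM + 50) scale over the 5 libraries with at least 5 lymphatic nuclei. Since a gene had to be seen in lymphatic nuclei to be ranked, genes of blood vessels that these lacked could not enter the lower count, and the counts are not to be compared. The leading genes were Tbx1 (mean log2 ratio 3.88), Sema3d (3.49), a secreted semaphorin, Maf (3.35), Clca3a1 (3.18), a chloride channel regulator used as a lymphatic surface marker and nearly identical in part to Clca3a2, and Cp (3.06), ceruloplasmin. Each of the 20 leading genes was higher in all 5 libraries. Sema3d was at 790 and 1254, 0 and 780, and 668 and 679 CPM. Cp was at 718 and 906, 407 and 2229, and 1335 and 1822 CPM, against at most 322 CPM in blood vascular nuclei. Genes with other known roles were among the 20 as well: Thy1 (2.63), a surface protein of T cells and fibroblasts that lymphatic cells also carry, Lama4 (2.46), a laminin chain, and Cd55 (2.42), a brake on complement.

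**Figure D2:**
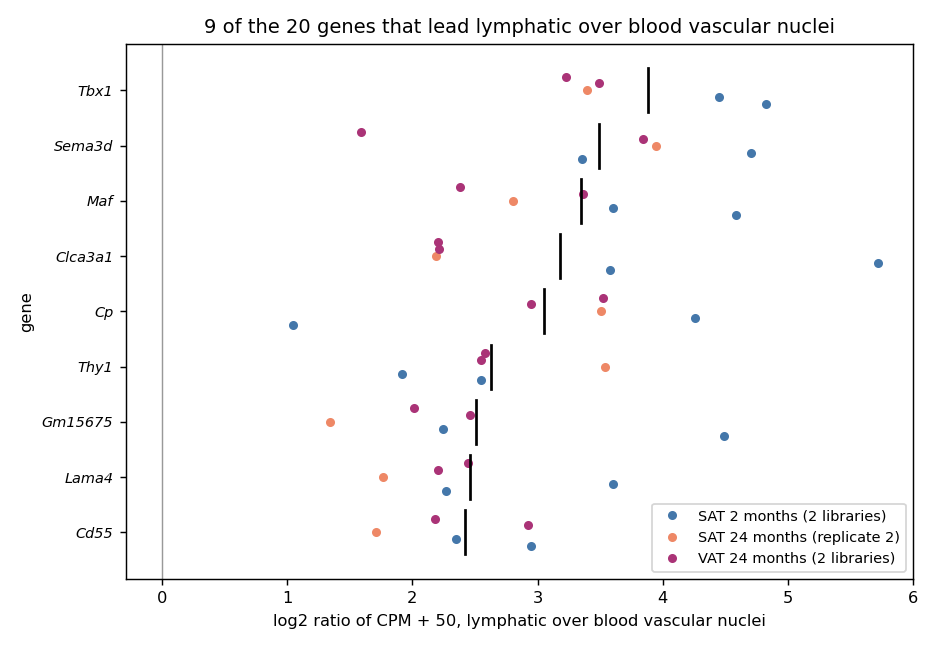
The genes named in the text, 9 of the 20 that lead lymphatic over blood vascular nuclei, as the log2 ratio of CPM + 50 in each of the 5 libraries with at least 5 lymphatic nuclei (points) and their mean (black bar). Every point lies right of 0, and Tbx1, Sema3d and Maf have the highest means, at 3.88, 3.49 and 3.35.

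As a list, the 15 pan-endothelial genes were above the other nuclei in every library. They summed to 4481 to 7826 CPM in lymphatic nuclei, against 333 to 926 CPM over the other nuclei. Pecam1 (CD31) was at 1580 and 1045, 815 and 891, and 591 and 619 CPM in lymphatic nuclei, and at 1052 to 2090 CPM in blood vascular nuclei. Cldn5, a tight junction claudin, was at 669 to 1002 CPM in the 5 larger libraries. Against all other nuclei, Stab1 (mean log2 ratio 3.70), Shank3 (3.57) and Cldn5 (3.54) were among the genes furthest up. Stab1 is a scavenger receptor of lymphatic cells and macrophages, and was also above the blood vascular nuclei in all 5 libraries, at 780 to 1634 CPM where those were at 64.4 to 373 CPM. Other members of the pan-endothelial list were low. Esam, an adhesion molecule, was at 0 in 4 libraries and at 25.7 and 33.6 CPM in VAT, against 235 to 676 CPM in blood vascular nuclei. Egfl7 had 3 UMIs over all lymphatic nuclei. Eng and Robo4, like Pecam1, were below the blood vascular nuclei in every library.

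Fabp4 and Cd36, genes of lipid uptake by capillaries, led the genes below the blood vascular nuclei. Fabp4, a fatty acid carrier of adipocytes and capillary endothelium, was at 646 and 488, 0 and 2117, and 1412 and 161 CPM in lymphatic nuclei, where blood vascular nuclei had 6441 and 12206, 12181 and 29141, and 19160 and 1437 CPM (mean log2 ratio -3.60). Cd36, the fatty acid translocase, followed (-2.75), and Sparc, a matrix protein, was at -2.28. Flt1, the VEGF receptor of blood vessels that helped define those nuclei, was at 0 in 5 libraries of lymphatic nuclei. In the list of 15 lipid handling genes, Gpihbp1, which anchors lipoprotein lipase to capillaries, was at 0 in 3 libraries of lymphatic nuclei and at most at 257 CPM, and Abca1, the cholesterol exporter, was above the blood vascular nuclei in 5 libraries, at 279 to 669 CPM against 123 to 290 CPM.

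Of the VEGF-C and angiopoietin pathway, receptors were seen in the lymphatic nuclei, and the ligand Vegfc only as single UMIs. Nrp2, the co-receptor of Flt4, was at 215 and 348, 815 and 446, and 1053 and 1002 CPM, and Kdr (VEGFR2) at 360 to 891 CPM. Tie1, the angiopoietin co-receptor, was seen in all 6 libraries at 139 to 646 CPM. Of the ligands, Vegfc had 2 UMIs over all lymphatic nuclei, 1 in SAT 24 months replicate 1 and 1 in VAT replicate 2. These stood at 407 and 6.72 CPM, against 24.7 and 9.85 CPM over the other nuclei of the same libraries. Angpt2, the angiopoietin that acts in lymphatic growth, was at 0 in SAT at 24 months and at 101 to 308 CPM elsewhere. The VEGF-C processing genes Ccbe1 and Adamts3 had 5 and 1 UMIs, all in VAT. Ccbe1 was at 33.6 CPM in VAT replicate 2, against 147 CPM over its other nuclei. Adamts3 was at 25.7 CPM in VAT replicate 1, against 14.9 CPM.

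Of the 15 valve and collecting vessel genes, 14 and 15 had a UMI in the VAT libraries and 3 to 7 in the SAT libraries, and their summed level was 2029 to 3902 CPM. Foxp2, a transcription factor of collecting vessels and valves, was at 431 and 0, 815 and 334, and 411 and 585 CPM, and near 0 in blood vascular nuclei (at most 5.86 CPM). In VAT replicate 2, 20 nuclei carried both Lyve1 and Foxp2, 33 Lyve1 alone, 24 Foxp2 alone and 19 neither. In VAT replicate 1 these counts were 7, 12, 2 and 2, so that Foxp2 without Lyve1 was the more frequent kind of Foxp2 nucleus in replicate 2 and the less frequent in replicate 1. Foxc2, the master factor of valves, had 2 and 16 UMIs in VAT and 0 elsewhere, and the connexin Gja4 3 and 18 UMIs in VAT and 0 elsewhere. Foxc2 and Gja4 were thus seen in VAT alone, where 23 and 96 of the 144 lymphatic nuclei and most of their UMIs lay, and a difference between the depots was not shown.

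Among genes of leukocyte traffic other than Ccl21a, Clec2d, a C-type lectin, was at 334 to 836 CPM in 5 libraries. Spns2, the exporter of sphingosine-1-phosphate that lets lymphocytes leave lymph nodes, was at 231 to 491 CPM in 5 libraries. Il7, which sustains T cells and is made by lymphatic endothelium, had 10 and 41 UMIs in VAT (257 and 276 CPM) and 1, 1, 0 and 1 in the SAT libraries. Ackr2, a decoy receptor for inflammatory chemokines, was at 144 and 348, 0 and 669, and 25.7 and 114 CPM, and at most at 16.3 CPM in blood vascular nuclei. Of the reelin pathway, beside Reln itself, the adaptor gene Dab2 was seen in 4 libraries and the receptor genes Vldlr and Lrp8 gave 5 and 4 UMIs in all.

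Genes of lymph node lymphatic subsets were followed because the inguinal pad holds a node. Stab2 (chr10:86675054-86843889), the hyaluronan and scavenger receptor of sinus lining cells, had 26 and 35 UMIs in SAT at 2 months (1867 and 2439 CPM), 3 and 0 in SAT at 24 months (1222 and 0 CPM), and 21 and 76 in VAT (539 and 511 CPM). It was seen in 6 of 9 and 7 of 8 nuclei at 2 months, 1 of 2 and 0 of 6 in SAT at 24 months, and 4 of 23 and 18 of 96 in VAT. The 2 groups with enough nuclei did not overlap, and nuclei without it were few at 2 months and most in VAT. Blood vascular nuclei had it in 2 of 233 nuclei of SAT 24 months replicate 2 and in no other library. Marco, a scavenger receptor of sinus cells of the lymph node medulla, had 1 and 12 UMIs in SAT at 2 months and 0 elsewhere, and the 12 lay in 1 nucleus. Itga2b had 6 and 5 UMIs at 2 months, 0 and 1 in SAT at 24 months, and 0 and 3 in VAT. The 11 genes of the list, Stab2 included, summed to 3662 and 4251 CPM in lymphatic nuclei of SAT at 2 months. Their sum was 1629 and 1003 CPM in SAT at 24 months and 1515 and 1062 CPM in VAT, so that it was highest at 2 months. Taken singly, the more abundant members beside Stab2 did not share one order of the groups. Mrc1, the mannose receptor, was at 646 and 69.7, 407 and 223, and 591 and 350 CPM, so that the groups overlapped. Ptx3, a secreted pentraxin, was at 646 and 139, 0 and 0, and 308 and 108 CPM, and Cd274 (PD-L1), a ligand that restrains T cells, at 0 and 209, 0 and 669, and 77.0 and 53.8 CPM. Madcam1, Ccl20, Clec4g and Glycam1 were at 0 in all lymphatic nuclei.

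Within libraries, Ccl21a and Stab2 were set side by side. In VAT replicate 2, 15 nuclei carried both, 63 Ccl21a alone, 3 Stab2 alone and 15 neither. In VAT replicate 1 the same counts were 3, 19, 1 and 0. At 2 months, Stab2 alone was seen in 5 of 9 and 7 of 8 nuclei, both in 1 and 0, and Ccl21a alone in 1 and 0. Stab2 in VAT was therefore mostly found in nuclei that also carried Ccl21a, as most nuclei there did.

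The first question was whether the share of lymphatic nuclei differed with age or depot. They made up 0.196% (exact 95% interval 0.0896% to 0.371%) and 0.139% (0.0598% to 0.273%) of kept nuclei in SAT at 2 months, and 0.0803% (0.00973% to 0.290%) and 0.127% (0.0468% to 0.277%) in SAT at 24 months. In VAT at 24 months the shares were 0.519% (0.329% to 0.777%) and 1.89% (1.54% to 2.31%). The intervals cover counting error only. The 4 SAT intervals overlap one another. The shares of both VAT libraries lie above those of all SAT libraries. By interval, VAT replicate 1 (from 0.329%) overlaps SAT 2 months replicate 1 (up to 0.371%), and VAT replicate 2 overlaps none. The SAT libraries averaged 0.104% ± 0.0333 (SD, n = 2) at 24 months, below 0.167% ± 0.0406 (n = 2) at 2 months, and these differ by -0.0633 points (p = 0.333 by a two-sided exact permutation test, which cannot give less with 2 libraries against 2). With at least 6 marker UMIs, or with every nucleus thinned to 1000 UMIs and the marker threshold lowered to 3 UMIs, the SAT groups overlapped. With nuclei of over 2000 UMIs the difference was -0.168 points, and with no limit on the excluded genes it was -0.0954 points. VAT was at 1.21% ± 0.972 (n = 2), 1.10 points above SAT at 24 months (exact permutation p = 0.333), and leaving out VAT replicate 2 gave a difference of 0.415 points, where leaving out replicate 1 gave 1.79 points. With nuclei of over 2000 UMIs it was 0.695 points. VAT replicate 2, with the higher of the VAT shares, is also the library with ovary and oviduct genes at 2594 CPM in its other nuclei. The part of such tissue in the difference was not tested.

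Of all endothelial nuclei, lymphatic plus blood vascular, the lymphatic ones made up 9 of 25 (36%) and 8 of 15 (53.3%) in SAT at 2 months, 2 of 60 (3.33%) and 6 of 239 (2.51%) in SAT at 24 months, and 23 of 101 (22.8%) and 96 of 144 (66.7%) in VAT. The share in SAT at 24 months was below those of both other groups in every library. The differences were -41.7 points for age in SAT and 41.8 points for VAT against SAT at 24 months (exact permutation p = 0.333 for both). Leaving out VAT replicate 2 made the depot difference 19.9 points, and leaving out replicate 1 made it 63.7 points. The denominator moved more than the lymphatic count in SAT, since blood vascular nuclei numbered 16 and 7 at 2 months and 58 and 233 at 24 months. A share of nuclei reports on what was dissociated and captured, and fewer cells and poorer recovery of their nuclei cannot be told apart.

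**Figure D3:**
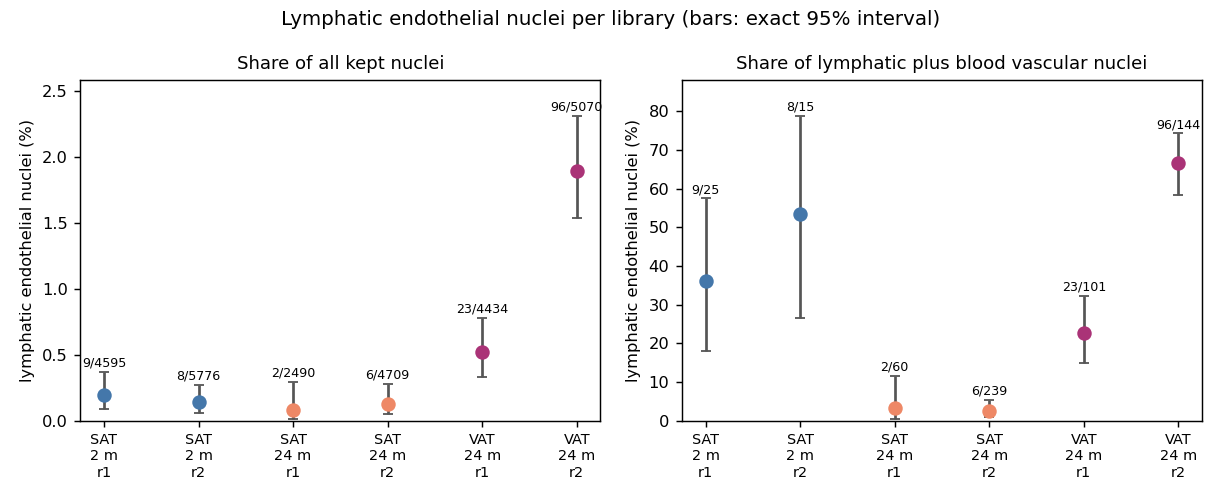
Lymphatic endothelial nuclei of each library as a percent of kept nuclei (left) and of lymphatic plus blood vascular nuclei (right), with the exact 95% interval of the count as bars and the counts printed above; r1 and r2 are replicates and m is months. The VAT libraries, at 0.519% and 1.89%, lie above the SAT libraries on the left, and the SAT libraries at 24 months, at 3.33% and 2.51%, are the lowest on the right.

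For gene expression, UMIs of lymphatic nuclei were summed per library and tested with edgeR's quasi-likelihood test across the 364 genes outside the rule that passed the filter on low counts, with Benjamini-Hochberg adjusted p-values and a call at an adjusted p under 0.05. With 5 libraries in the fit, SAT at 24 months was 1 library of 6 nuclei (replicate 2), which the test assumes to vary like the others. For this reason VAT at 24 months was also compared with SAT at 2 months, 2 libraries against 2, where age and depot cannot be told apart. The comparisons share libraries and are not independent of each other.

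Comparing SAT at 24 with SAT at 2 months, 22 genes were called, 6.04% of those tested: 12 were higher at 24 months (3.30%) and 10 lower (2.75%). The number of calls depended on single libraries, for 0 genes were called without VAT replicate 2, 3 without SAT 2 months replicate 1 and 2 without SAT 2 months replicate 2. Adding the library of 2 nuclei left 2 calls.

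Ccl21a was called higher in SAT at 24 than at 2 months, with a fitted log2 fold change of 6.52 (SE 0.66, adjusted p = 1.14e-07), which rests on the 6 nuclei of replicate 2. The library of 2 nuclei, not in the fit, had 0 Ccl21a UMIs out of 2455, and with it the log2 fold change was 5.86 (adjusted p = 2.06e-05). The ratio of pooled levels was 130 with a counting interval of 43.5 to 640, since only 3 UMIs stood against 124. It was called in 11 of 12 alternatives and missed in the fit without VAT replicate 2 (log2 fold change 6.48, adjusted p = 0.370). Iigp1, an interferon-induced GTPase with close relatives in the genome, was at 0 and 69.7 CPM at 2 months and 3789 CPM in SAT 24 months replicate 2 (1 against 34 UMIs, ratio 107, counting interval 18.0 to 4355, adjusted p = 0.00276). Fgl2, a secreted protein with roles in coagulation and immune control and a member of the identity list, rose by 2.80 on the log2 scale (SE 0.79, adjusted p = 0.0394), from 933 and 0 CPM to 4457 CPM, of which 24 of 40 UMIs lay in 1 nucleus.

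The other genes named as higher carried few UMIs. Igfbp5, an IGF-binding protein, was at 0 in both libraries at 2 months and had 12 UMIs at 24 months, 10 of them in 1 nucleus (at least 12.6-fold higher, against a floor of 3 UMIs over the group, adjusted p = 0.033). Abi3bp, a matrix protein, went from 0 to 10 UMIs in 5 of 6 nuclei (at least 10.5-fold higher, adjusted p = 0.0361). Prss23, a secreted serine protease of endothelium, went from 1 to 20 UMIs, 15 of them in 1 nucleus (ratio 63, counting interval 10.1 to 2612, adjusted p = 0.00693). The matrix protease inhibitors Timp3 (2010 and 348 against 6909 CPM, log2 fold change 2.09, SE 0.63) and Timp2 (287 and 279 against 2674 CPM, 2.76, SE 0.83) were both called at an adjusted p of 0.0463. The rest were Dlg1, Ntn1, Thsd7a and Vim.

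Among the 10 lower genes, Stab2 fell from 1867 and 2439 CPM at 2 months to 0 UMIs in SAT 24 months replicate 2 (at least 6.45-fold lower, adjusted p = 0.00276). The library of 2 nuclei, not in the fit, had 3 Stab2 UMIs in 1 nucleus, and with it the adjusted p was 0.160. Igfbp7, a secreted matrix protein of endothelium, was at 2369 and 1951 CPM at 2 months and at 0 in replicate 2 (at least 6.45-fold lower, adjusted p = 0.00332), with 2 UMIs in the library of 2 nuclei and an adjusted p of 0.121 with it. Tnc, the matrix glycoprotein tenascin C, was at 1005 and 1045 against 0 CPM (at least 3.07-fold lower, adjusted p = 0.0402), and Rasip1, a regulator of vessel lumen formation, at 1077 and 906 against 0 CPM (at least 2.96-fold lower, adjusted p = 0.0394). All 4 genes were present in both VAT libraries.

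Of the remaining lower genes, H2-K1, an MHC class I heavy chain whose reads overlap in part with those of H2-D1 and other class I genes, was at 7252 and 6550 CPM at 2 months and 2340 CPM at 24 months (log2 fold change -2.02, SE 0.51, adjusted p = 0.025). Cd55 went from 1580 and 2996 to 223 CPM, and Clca3a1 from 2082 and 2578 to 223 CPM, each with 2 UMIs left (ratios of 10.3, counting interval 2.74 to 87.0, and 10.5, counting interval 2.79 to 88.3, lower at 24 months, adjusted p = 0.0361 and 0.0298). Gm15675, a gene without a known role, had 25 and 24 UMIs at 2 months and 1 at 24 months (ratio 15.5 lower, counting interval 2.66 to 627, adjusted p = 0.0293). Cdk8, of which 35 of 49 UMIs in SAT 2 months replicate 2 lay in 1 nucleus, and Rn18s-rs5, a ribosomal RNA gene with many copies, completed the list.

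Between VAT and SAT at 24 months no gene was called (0 of 364, 0.00%) by edgeR, with 51 genes at an unadjusted p under 0.05, and DESeq2 called 1, Malat1. Ccl21a was at 13818 CPM in the SAT library and at 12019 and 6569 CPM in VAT (log2 fold change -0.13, SE 0.45, adjusted p = 0.900). The genes ranked first as higher in VAT were Malat1, a nuclear long RNA (21507 against 39549 and 42803 CPM, log2 fold change 1.41, SE 0.34, adjusted p = 0.106), Kalrn, an exchange factor for small GTPases (111 against 1695 and 1116 CPM, adjusted p = 0.139), Zeb1, Prkg1 and Plekhg1. Fitted to the VAT and SAT libraries at 24 months alone, edgeR called 13 genes, and with a rule of 3 marker UMIs it called 10, with these 5 genes, Timp3 and Iigp1 among both.

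Ranked first as lower in VAT were Timp3 (6909 against 1695 and 874 CPM, log2 fold change -2.01, SE 0.59, adjusted p = 0.139), Iigp1 (3789 against 180 and 847 CPM, adjusted p = 0.158), Irf1, an interferon response factor (2006 against 154 and 168 CPM, adjusted p = 0.165), Cxcl10 and Timp2. Of the 18 Irf1 UMIs of the SAT library 12 lay in 1 nucleus, and all 10 of its Cxcl10 UMIs lay in 1 nucleus. The levels of Irf1 and Cxcl10 in this library therefore rested mostly on 1 nucleus.

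Comparing VAT at 24 months with SAT at 2 months, 48 genes were called (13.2%), 32 higher in VAT (8.79%) and 16 lower (4.40%). Without VAT replicate 2 no gene was called, without VAT replicate 1 there were 9, without SAT 2 months replicate 1 there were 3 and without replicate 2 there was 1. Scaling by library size alone gave 40 calls, 22 higher and 18 lower. Ccl21a was higher in VAT by 6.39 on the log2 scale (SE 0.61, adjusted p = 3.52e-08). Its ratio of pooled levels was 72.6 (counting interval 24.8 to 352), and it was called in 11 of 12 alternatives and missed without VAT replicate 2 (log2 fold change 6.63, adjusted p = 0.409).

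Piezo2, a mechanically gated ion channel, followed Ccl21a in this comparison. It had 0 UMIs in both libraries at 2 months and 78 and 139 in VAT (2003 and 935 CPM), in 17 of 23 and 48 of 96 nuclei (at least 10.9-fold higher, adjusted p = 0.000788). SAT 24 months replicate 2 had 5 Piezo2 UMIs in 3 of 6 nuclei (557 CPM, adjusted p = 0.0671 against 2 months). Abi3bp, Igfbp5 and Stxbp6, a SNARE-binding protein, were likewise at 0 in both libraries at 2 months and seen in both VAT libraries (at least 4.42-fold, 3.82-fold and 5.22-fold higher, adjusted p = 0.0278, 0.0376 and 0.0242). The groups did not overlap for any of these genes, which follows where one group is at 0.

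Matrix and guidance genes were among the 32 as well. Lama4, the laminin chain of endothelial basement membrane, was at 503 and 557 CPM at 2 months, 1222 and 1226 CPM in SAT at 24 months and 1823 and 1889 CPM in VAT (log2 fold change of VAT against SAT at 2 months 1.82, SE 0.53, adjusted p = 0.0309). Adamtsl1, a secreted matrix protein, was at 71.8 and 139 against 616 and 847 CPM (adjusted p = 0.0468). Sema6a, a membrane semaphorin, was at 215 and 348 against 1002 and 1251 CPM (log2 fold change 2.02, SE 0.65, adjusted p = 0.0403). Ntn1, the guidance protein netrin 1, was at 144 and 69.7 against 822 and 713 CPM (adjusted p = 0.0309). Rhoj, a small GTPase of endothelium, was at 71.8 and 209 against 796 and 1130 CPM (adjusted p = 0.0278).

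Of the 16 genes lower in VAT, C1qtnf7, a secreted protein of the C1q family, was at 1149 and 557 CPM at 2 months and 0 and 40.3 CPM in VAT (log2 fold change -4.75, SE 1.17, adjusted p = 0.0137). Tgfa, an EGF receptor ligand, was at 1005 and 1185 against 0 and 134 CPM (-3.58, SE 0.96, adjusted p = 0.0242). Cpe, a carboxypeptidase of secretory granules, was at 1149 and 488 against 0 and 108 CPM (adjusted p = 0.0418), and Tgfbi, a matrix adhesion protein, at 1436 and 418 against 103 and 101 CPM (adjusted p = 0.0309). Stab2 was lower in VAT by a log2 fold change of -2.02 (SE 0.49, adjusted p = 0.0137), and Igfbp7 (-2.33, SE 0.52, adjusted p = 0.0126), Cd55 (-2.38, SE 0.56, adjusted p = 0.0135) and H2-K1 (-1.50, SE 0.35, adjusted p = 0.0135) were lower too. These 4 genes were also called lower in SAT at 24 months, in a comparison with the same libraries at 2 months.

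**Figure D4:**
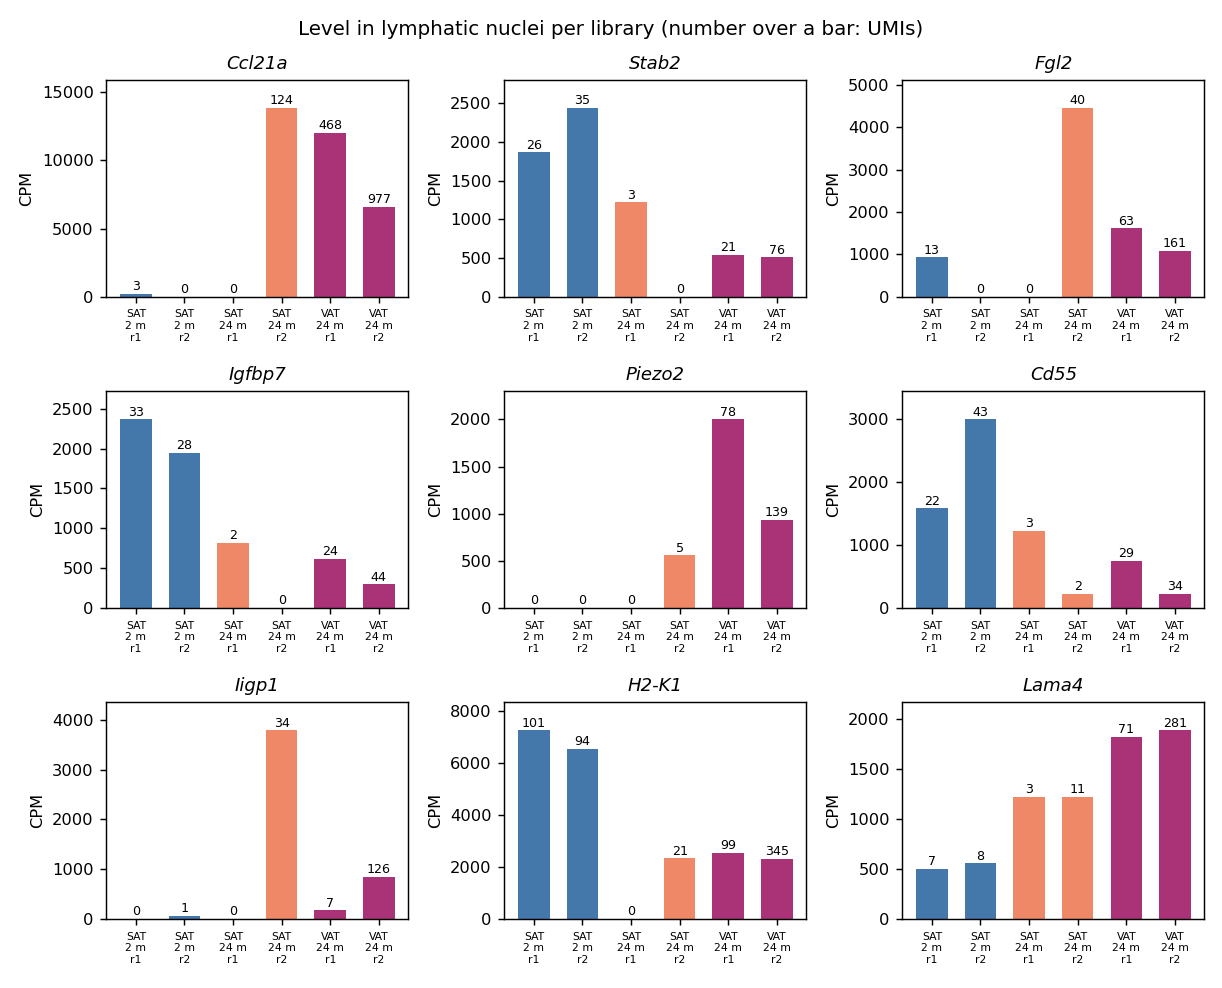
Levels of 9 genes in the lymphatic nuclei of each library in CPM (bars), with the UMIs behind each bar printed above it; r1 and r2 are replicates and m is months. Ccl21a rests on 124, 468 and 977 UMIs in 3 libraries at 24 months and on 3 and 0 at 2 months, Stab2, Igfbp7, Cd55 and H2-K1 are highest at 2 months, and the bars of SAT 24 m r1 come from 2 nuclei.

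By list, the calls were few, and are to be read against 6.04% of all tested genes called between the ages in SAT, 0.00% between VAT and SAT at 24 months and 13.2% between VAT and SAT at 2 months. Of the 15 identity genes, 11 were tested, of which Ccl21a and Fgl2 were higher in SAT at 24 than at 2 months and Ccl21a in VAT against SAT at 2 months. The median log2 fold change of the list was 0.19 and 0.82, beside -0.14 and 0.10 over all 364 genes. Of 15 pan-endothelial genes 8 were tested and 0 called by edgeR or DESeq2 in the 3 comparisons, with 1 at an unadjusted p under 0.05 in VAT against SAT at 2 months and 0 in the others, where 96 of all genes were at that level in the former and 90 and 51 in the latter. Of 18 genes of VEGF-C and angiopoietin signalling 4 were tested, and of 15 valve genes 3, with 0 called by either tool and 1 at an unadjusted p under 0.05 in each list. Of 18 guidance and Notch genes 4 were tested and Sema6a was called. Of 15 lipid handling genes 3 were tested and 0 called by either tool, with 1 at an unadjusted p under 0.05. Of 15 matrix genes 4 were tested, with Timp3 called higher in SAT at 24 months, and Lama4 and Adamtsl1 in VAT against SAT at 2 months. Of 19 genes of senescence, stress and interferon, 5 were tested and H2-K1 was called lower in both comparisons with SAT at 2 months. B2m, the light chain of MHC class I, was at 4021 and 3345, 407 and 4680, and 2260 and 2091 CPM and was not called. Cdkn1a, the cell cycle inhibitor p21, had 9 UMIs in all, and Cdkn2a had 1.

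Signs of other cells and of RNA quality moved with the groups. The 8 genes of the lymphocyte list summed to 1364 and 418 CPM in lymphatic nuclei at 2 months, 0 and 0 in SAT at 24 months, and 25.7 and 33.6 CPM in VAT, with 6 and 3 of the 8 genes seen at 2 months. In the other nuclei the same list was at 1720 and 2164, 813 and 235, and 49.6 and 491 CPM. Glycam1, a mucin of the high endothelial venules of lymph nodes, was at 26377 and 2269 CPM in blood vascular nuclei at 2 months, from 2 of 16 and 1 of 7 of these nuclei, and at 0 in those of the other 4 libraries. Both measures were thus highest in the SAT libraries at 2 months, and their part in the differences of Stab2, H2-K1 and Ccl21a was not tested. Genes of ovary and oviduct were high in the other nuclei of VAT replicate 2 alone, at 2594 CPM. Without this library 0 genes were called in either comparison with SAT at 2 months. The part of such tissue in the shares and calls was not tested.

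For the remaining lists, the adipocyte sum was at 697 to 1926 CPM in lymphatic nuclei against 2038 to 23073 CPM in the other nuclei, and Plin1, which the rule limited, was at 0 in 3 libraries. The fibroblast sum was highest in VAT replicate 1, at 3313 CPM, against 334 to 1222 CPM in the other 5 libraries. The macrophage sum lay between 334 and 862 CPM, the mesothelial one between 0 and 770 CPM, the epithelial one between 0 and 693 CPM, the mural and muscle one between 103 and 407 CPM, and the blood vascular one between 1221 and 2718 CPM against 5610 to 10564 CPM in blood vascular nuclei.

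Malat1 was at 24340 and 19372 CPM at 2 months and 39549 and 42803 CPM in VAT, Rn18s-rs5 at 15436 and 25085 against 10041 and 10018 CPM, and the mitochondrial mt-Co1 at 1508 and 1603 against 4314 and 3301 CPM, and all 3 were called in that comparison. The genes higher in VAT spanned a median of 237 kb in the genome and those lower 54.4 kb, against 60.6 kb over the tested genes. Their part in the calls of this comparison was not tested.

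**Figure D5:**
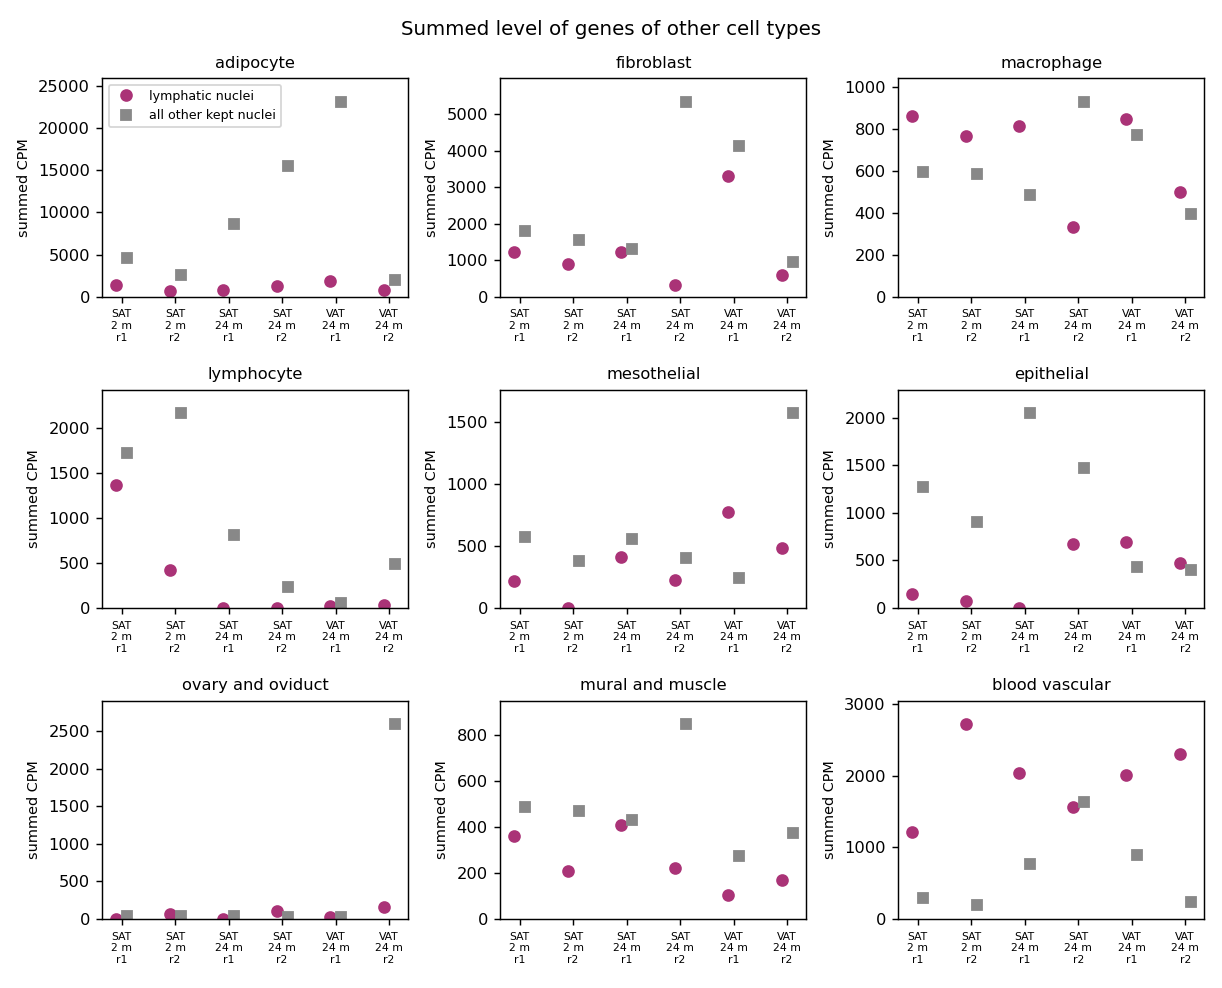
Summed level of the genes of 9 other cell type lists (CPM) in lymphatic nuclei (circles) and in all other kept nuclei (squares) of each library; r1 and r2 are replicates and m is months. The lymphocyte sum is high in both kinds of nuclei at 2 months, where lymphatic nuclei reached 1364 and 418 CPM, and the ovary and oviduct sum of 2594 CPM in the other nuclei of VAT replicate 2 stands beside 161 CPM in its lymphatic nuclei.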

How the data were processed

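Nuclear RNA of 6 libraries was used. Per the extract protocol and methods, the authors prepared libraries with the Singleron GEXSCOPE kit, whereas the sample descriptions name 10x Genomics, and the former was taken. The authors counted UMIs with Celescope on GRCm39; its version and the annotation release are not given in the sources used here. The deposited values are raw UMI counts per gene and barcode, with no normalization, 8061862 to 16226690 UMIs per library. Nuclei were kept by the study's limits on genes, UMIs and mitochondrial share. Counts of lymphatic nuclei were summed per library, since nuclei are not replicates.

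edgeR 4.0.16 in R 4.3.3 (TMM scaling, filterByExpr, quasi-likelihood test, Benjamini-Hochberg over all tested genes, two-sided) was fitted to the 3 groups together, with libraries of at least 5 lymphatic nuclei. DESeq2 1.42.0 was an alternative. Genes of the rule were left out of calls. Named genes were the 5 called genes per direction with the largest fitted change (without calls, the 5 of smallest p), the 20 leading over blood vascular or all other nuclei, per list the 4 members of highest mean CPM and any called, and the genes of the rule with Ccl21a and its copies. Some genes that this rule names are not reported here. Other genes were named after their values were seen. The members and lists were chosen with earlier results of these data known. The comparison of VAT at 24 with SAT at 2 months was added after the data were seen. Shares were compared with exact permutation tests, and intervals are Clopper-Pearson at 95%. Floors are 3 counts over a group or a library's nuclei. The fit was tested on simulated data, with their spread taken from the fit itself. Positions, coding sequences and lengths came from GENCODE M39 (329 of 329 named or listed genes found). Same-numbered libraries were not taken as pairs, since no source ties them. In lymphatic nuclei those of both depots at 24 months could not be compared with 2 nuclei in 1 library, and those of SAT at 2 months and VAT, which differ in age, showed a correlation of deviations of 0.0326 over 369 genes. Python 3.11.15, numpy 2.4.6, scipy 1.17.1 and pandas 2.3.3 were used.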

Additional observations from a re-analysis of the deposited data

How the results depend on the processing

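The differences in the share of lymphatic nuclei kept their direction under all settings tried. With 1 library left out they ranged from -0.0920 to -0.0346 points for age in SAT, from 0.415 to 1.79 points for VAT against SAT, and, of endothelial nuclei, from -50.4 to -33.1 and from 19.9 to 63.7 points. The counts of called genes were less stable. For SAT at 24 against 2 months (22 genes), DESeq2 called 6, no filter on low counts 7, a rule with 3 marker UMIs 38 and the fit with the library of 2 nuclei 2, and leaving out 1 library gave 0 to 13. For VAT against SAT at 24 months (0 genes), DESeq2 called 1, the fit to those libraries alone 13 and the rule with 3 marker UMIs 10, and leaving out 1 library gave 0 to 1. For VAT at 24 against SAT at 2 months (48 genes), DESeq2 called 13, no filter 70 and the fit with the library of 2 nuclei 4, and leaving out 1 library gave 0 to 71. For this last comparison, leaving out SAT 24 months replicate 2 is the same fit as using its libraries alone (71 genes). The cause of these moves was not tested. The fit with a replicate block called 1 gene, 0 genes and 1 gene in the 3 comparisons, and since the numbers are not shown to pair the libraries it says nothing of weaker effects. The fit with the library of 2 nuclei and the third comparison were chosen after seeing the data. Scaling by library size moved the median log2 fold change of all genes from 0.28 to 0.05 for VAT against SAT at 24 months and from 0.10 to -0.04 for VAT against SAT at 2 months. Over 86 pairs of a gene and a comparison (every called gene, those ranked first, and Ccl21a, Piezo2 and B2m where tested), 988 alternative values gave 500 on the same side of the threshold, 461 that lost the call and 19 that gained it. The other 8 changed direction, all for differences that were not called: Ccl21a between VAT and SAT at 24 months was at 0.44 on the log2 scale with no filter, 0.0056 with 3 marker UMIs, 0.36 with the library of 2 nuclei and -0.49 to 0.15 with 1 library left out, and B2m between the ages in SAT was at 0.20 in the fit to those libraries alone, 0.086 with 6 marker UMIs and -0.24 to 0.052 with 1 library left out. The 500 values on the same side include those of uncalled pairs that stayed uncalled, which had no call to lose. Called genes therefore kept their calls less often than the pooled counts show. Depth limits these results throughout, with 2455 to 148728 UMIs of lymphatic nuclei per library.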

Other observations

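Further genes called between VAT at 24 months and SAT at 2 months were seen only as values. Among those lower in VAT, Selenop, a secreted selenium carrier, was at 2513 and 1742 CPM in lymphatic nuclei of SAT at 2 months, at 407 and 891 CPM in those at 24 months, and at 950 and 551 CPM in VAT (adjusted p = 0.0380), Ctsl, the lysosomal protease cathepsin L, at 1723 and 976, 0 and 1003, and 539 and 155 CPM (adjusted p = 0.0309), and Il6st, the shared receptor chain of the interleukin 6 family, at 2154 and 1742, 1629 and 1114, and 719 and 666 CPM (adjusted p = 0.0403). Nfat5, the osmotic stress factor, was higher in VAT, at 287 and 279, 407 and 1114, and 1258 and 921 CPM (adjusted p = 0.0468), and so was Utrn, utrophin, at 646 and 209, 815 and 1894, and 1849 and 1647 CPM (adjusted p = 0.0305). Age and depot cannot be told apart in these values.

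Semaphorins other than Sema6a were also seen in lymphatic nuclei. Sema3a was at 287 and 348 CPM in the SAT libraries at 2 months, at 407 and 0 CPM in those at 24 months, and 693 and 464 CPM in VAT, against 0 to 64.4 CPM in blood vascular nuclei of 5 libraries and 283 CPM in those of VAT replicate 2. The co-receptor Nrp1, a gene of blood vessels, had 8 UMIs over all 144 lymphatic nuclei and was at 313 to 777 CPM in blood vascular nuclei.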
